A study of Mus musculus with 30 samples.

Results

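The 10 genes Car7, Aqp8, Gml, Bbox1, Sel1l3, Epha2, Lpcat2, Slc1a6, Lpl and Kcnt1 were chosen because their level moved strongly between 12 and 16 days post partum (dpp) in testis cells of mice homozygous for a mutant Prdm9 allele (-/-), 4 of them upward (Car7, Aqp8, Gml, Bbox1) and 6 downward. They are 10 of the 65534 rows of the deposited table, of which 38906 carry an Ensembl identifier. The libraries are polyadenylated RNA from testes of male C57BL/6J mice with under 10% 129S1/SvImJ background, each from 1 animal, labelled as germ cells enriched from the testis after enzyme digestion of the seminiferous tubules and washing away of interstitial cells. At each of 8, 12 and 16 dpp there were 5 libraries of Prdm9-/- animals and 5 of non-mutant animals; the mutant allele is not described further in the sources used here. The non-mutants were 2 +/- and 3 +/+ at 8 dpp, 4 +/- and 1 +/+ at 12 dpp, and 3 +/- and 2 +/+ at 16 dpp. Levels are TPM, a length-corrected share of each library's transcripts. In such bulk samples fewer cells of a type and less RNA per cell cannot be told apart.

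Prdm9 codes for a germ cell histone methyltransferase that marks the sites where meiotic recombination begins, and mouse spermatocytes without it arrest in meiotic prophase. In the first wave of spermatogenesis the germ cells of a young testis advance together, so that an older testis holds later germ cells, while the Sertoli cells that nurse them stop dividing and mature over the same period. The 10 genes belong to unrelated families: a carbonic anhydrase, a water channel, a surface protein, an enzyme of carnitine synthesis, a receptor tyrosine kinase, a lipase, an acyltransferase, a glutamate transporter, a potassium channel and a Sel1-repeat protein.

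The genes were selected on the mean differences in log2(TPM + 1) between 16 and 12 dpp in the -/- libraries. Among the 13261 named genes ranked, Car7 (2.71), Aqp8 (2.61), Gml (2.50) and Bbox1 (2.41) ranked 1, 2, 4 and 5 among rises, with Hsd3b6 (2.53) between them and Kctd19 (2.41) next. Sel1l3 (-2.76), Epha2 (-2.44), Lpcat2 (-2.24), Slc1a6 (-2.01) and Lpl (-1.78) ranked 1 to 5 among falls, and Kcnt1 (-1.41) ranked 25, just ahead of Erbb3 (-1.39). These ranks describe the choice and carry no test. Tests below use only the 20 libraries that the choice did not use, the 15 non-mutant ones and the 5 -/- ones at 8 dpp. The column headers hold a number that is read as the litter here and below, though they do not name it so. By that number each non-mutant animal at 12 and 16 dpp was a litter mate of a -/- animal that the choice used. Effects shared within litters can thus tie these tests to the choice. Everything that involves -/- libraries at 12 or 16 dpp is given as values.

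The Prdm9 level goes against the labels in litter 13 at 12 dpp. There Prdm9 stood at 19.2 TPM in the library labelled -/- replicate 5 and at 9.16 TPM in the one labelled +/- replicate 4, against 6.34 to 8.16 TPM in the other 4 -/- libraries and 15.99 to 23.3 TPM in the other 4 non-mutant libraries. At 16 dpp Prdm9 ran from 6.89 to 12.8 TPM in -/- libraries and from 19.7 to 34.4 TPM in non-mutant libraries. At 8 dpp it ran from 4.77 to 8.98 TPM in -/- libraries and from 1.82 to 6.10 TPM in non-mutant libraries, so that it does not check the labels at that age. Without litter 13 the -/- difference between 16 and 12 dpp moved most for Epha2, to -2.34, and the non-mutant one moved most for Aqp8, to 1.91, and for Car7, to 2.29.

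Promoter windows, 250 bases before to 50 after the RefSeq start site (build GRCm38.p6, the same coordinates as mm10), were on hand for Car7, Aqp8, Bbox1, Epha2, Lpcat2 and Slc1a6. They were searched on both strands for 8 short motifs, with every match counted also where motifs overlap. The 4 windows printed here, of Aqp8 and Bbox1, the pair of rising genes with the closest profiles, and of Epha2 and Lpcat2, which fell, let genes that moved in opposite directions be read beside each other. Capitals mark the matches, 5′ to 3′ on the strand of the gene.
Aqp8 (chr7:123462044-123462343, plus strand): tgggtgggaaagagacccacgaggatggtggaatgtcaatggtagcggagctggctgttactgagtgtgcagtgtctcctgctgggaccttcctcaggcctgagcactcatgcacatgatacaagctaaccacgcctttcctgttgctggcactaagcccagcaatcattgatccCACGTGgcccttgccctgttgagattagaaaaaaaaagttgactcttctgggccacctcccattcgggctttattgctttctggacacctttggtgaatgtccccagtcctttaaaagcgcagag
Bbox1 (chr2:110305676-110305975, minus strand): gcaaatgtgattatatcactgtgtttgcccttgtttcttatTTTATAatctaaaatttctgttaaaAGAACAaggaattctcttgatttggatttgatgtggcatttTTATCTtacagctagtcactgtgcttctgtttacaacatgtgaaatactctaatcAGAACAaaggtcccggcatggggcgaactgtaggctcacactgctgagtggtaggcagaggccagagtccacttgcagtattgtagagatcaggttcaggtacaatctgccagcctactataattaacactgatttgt
Epha2 (chr4:141300971-141301270, plus strand): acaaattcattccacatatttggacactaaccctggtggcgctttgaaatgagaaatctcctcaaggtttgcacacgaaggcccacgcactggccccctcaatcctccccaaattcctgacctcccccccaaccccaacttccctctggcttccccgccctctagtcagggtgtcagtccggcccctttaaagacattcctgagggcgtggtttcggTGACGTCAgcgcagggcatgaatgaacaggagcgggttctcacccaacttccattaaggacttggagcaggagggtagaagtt
Lpcat2 (chr8:92855083-92855382, plus strand): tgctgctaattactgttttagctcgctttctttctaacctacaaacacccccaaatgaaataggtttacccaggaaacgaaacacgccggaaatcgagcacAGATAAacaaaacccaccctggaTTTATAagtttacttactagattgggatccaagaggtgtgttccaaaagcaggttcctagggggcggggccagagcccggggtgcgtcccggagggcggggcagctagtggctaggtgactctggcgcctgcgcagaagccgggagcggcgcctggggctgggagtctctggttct

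Aqp8 held 1 E box, 75 bases before its start site, and Bbox1 held 2 steroid receptor sites, a GATA site and a TATA box, the last pair on the other strand. The start site of this Bbox1 window lies inside the gene's annotated span rather than at its end. Epha2 held 1 CRE, 33 bases before its start site, and Lpcat2 held a GATA site and, on the other strand, a TATA box. Slc1a6 held an E box at 32 bases before the start site, and of the 3 windows of Car7, 1 held a GATA site. None of the 8 motifs was found in all 4 printed windows. Among 32817 promoter windows of this length, the cyclic AMP response element CRE, spelled TGACGTCA, was present in 1.79%. The E box, spelled CACGTG, was present in 7.15% of the same windows. A steroid receptor element, spelled AGAACA here, was present in 18.97% of them. The element bound by the GATA family, spelled AGATAA, was present in 11.2% of windows. The TATA box was spelled TATAAA for the search, which 13.6% of windows held. Elements for NR5A receptors, spelled AAGGTCA, were in 4.72% of windows and had no match in those of these genes. Likewise without a match were the element of the DMRT family, spelled ACATTGT and present in 2.97% of windows, and the core element of MYB proteins, spelled AACTGC and present in 13.7% of windows.

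Each of the 10 genes moved the same way in non-mutant as in -/- testes. In the non-mutant libraries, the 4 genes chosen as rising were higher at 16 than at 12 dpp and the 6 chosen as falling were lower, each past an adjusted p of 0.05 (limma on log2(TPM + 1), Benjamini-Hochberg over 19238 rows). Of all rows tested, 3542 (18.4%) passed in either direction, 7.65% upward and 10.8% downward (1472 higher and 2070 lower, but 2143 higher and 1360 lower after median-ratio scaling). Between 8 and 12 dpp the same 4 rose and the same 6 fell, where 29% of rows passed, 17.7% upward and 11.3% downward (3405 higher and 2182 lower, but 2659 and 2989 after median-ratio scaling). Aqp8 passed the filter on low values only through its high libraries, so it had to differ, and for the earlier step the same holds for Car7 and Bbox1; nothing is read from the tally of 10. Ranked by size among all rows tested in the later non-mutant step, Sel1l3, Epha2, Lpcat2, Kcnt1, Lpl and Slc1a6 stood at 5, 7, 10, 11, 12 and 24 among lower rows. Gml, Car7, Aqp8 and Bbox1 stood at 50, 119, 184 and 274 among higher rows.

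**Figure D1:**
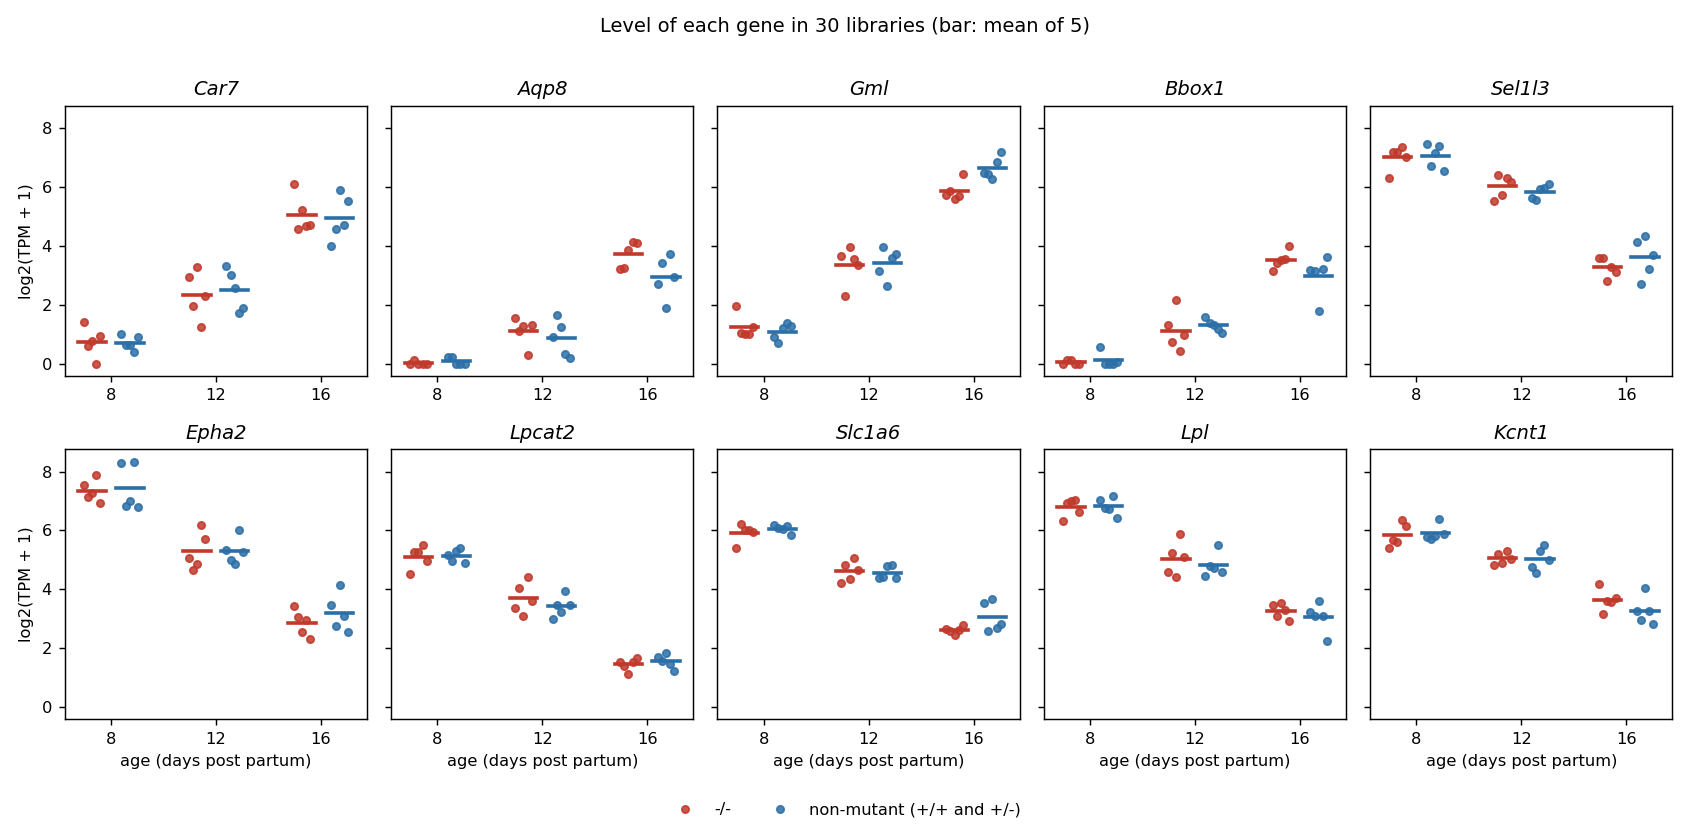
Level of each of the 10 genes as log2(TPM + 1) in 30 libraries, by age in days post partum, with 5 -/- libraries (red) left of 5 non-mutant libraries (blue) at each age and a bar at each mean. For all 10 genes the 16 dpp libraries lie clear of the 12 dpp libraries in both classes, and at each age the -/- and non-mutant points overlap. The -/- libraries at 12 and 16 dpp chose the genes, and the share of all rows so separated was not counted.

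Gml, on chr15:74813452-74818815 (ENSMUSG00000068349), codes for a glycosylphosphatidylinositol-anchored surface protein of the Ly6 and uPAR domain family. Values are listed here and below for -/- replicates 1 to 5 and then for the non-mutants, the +/+ replicates before the +/- ones. At 8 dpp Gml had 2.84, 1.04, 1.02, 1 and 1.37 TPM in the -/- libraries, against 0.87, 0.62, 1.3, 1.59 and 1.41 TPM in the non-mutant libraries. At 12 dpp Gml had 11.5, 3.86, 14.5, 10.7 and 9.28 TPM in the -/- libraries, against 7.9, 14.7, 5.19, 10.9 and 12.3 TPM in the non-mutant libraries. At 16 dpp Gml had 51.9, 56.9, 47.4, 50.7 and 85.5 TPM in the -/- libraries, against 87.3, 86.4, 76.98, 114 and 144 TPM in the non-mutant libraries. Every library at 16 dpp exceeded every library at 12 dpp, and at 16 dpp 4 of the 5 -/- libraries lay below every non-mutant library, the exception being -/- replicate 5. Between 12 and 16 dpp Gml rose in non-mutants by 3.23 (SE 0.237, limma adjusted p = 2.05e-08) on the log2 scale, with a 95% interval of 2.74 to 3.73, and between 8 and 12 dpp by 2.32 (SE 0.237, limma adjusted p = 1.05e-06). In -/- libraries the later difference was 2.50. At 16 dpp the mean was 58.5 ± 15.5 TPM in -/- and 102 ± 27.2 TPM in non-mutant libraries (SD, n = 5 each), and Gml was lower in the -/- mate in 5 of 5 litters.

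Of 31 listed Ly6 and uPAR domain genes 16 were tested between 12 and 16 dpp in non-mutants, and 5 rose, 3 fell and 8 did not pass, with a median change of 0.25 against -0.09 for all rows; after median-ratio scaling the 5 still passed and the 3 falls did not. The risers included Gml2 (2.79, adjusted p = 2.58e-08), the neighbouring paralogue, Lypd4 (2.93, adjusted p = 8.11e-06) and Tex101 (1.36, adjusted p = 0.00498), a surface protein of germ cells. Gml and Gml2 are near copies: 18.7% of the 50-base stretches of the Gml transcripts also occur in Gml2, so the split of reads between them is uncertain. Gml2 itself averaged 38.0 TPM in -/- and 65.6 TPM in non-mutant libraries at 16 dpp.

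Car7, on chr8:104534689-104550343 (ENSMUSG00000031883), codes for a cytosolic carbonic anhydrase, an enzyme that interconverts carbon dioxide and bicarbonate. At 8 dpp Car7 had 1.66, 0.51, 0.7, 0 and 0.92 TPM in the -/- libraries, against 1, 0.55, 0.55, 0.31 and 0.89 TPM in the non-mutant libraries. At 12 dpp Car7 had 6.67, 2.91, 8.78, 1.36 and 3.92 TPM in the -/- libraries, against 9, 7.07, 4.93, 2.26 and 2.67 TPM in the non-mutant libraries. At 16 dpp Car7 had 68.2, 22.9, 36.3, 24.4 and 25.5 TPM in the -/- libraries, against 15.1, 22.8, 58.3, 25.3 and 45.6 TPM in the non-mutant libraries. Car7 was at or under 1.66 TPM at 8 dpp and had the second highest mean of the 10 at 16 dpp. At that age the spread inside both classes was wide, and the highest -/- and the highest non-mutant library were mates of litter 2. In non-mutants Car7 rose by 2.45 (SE 0.340, limma adjusted p = 3.69e-05) between 12 and 16 dpp, with a 95% interval of 1.74 to 3.16, and by 1.78 (SE 0.340, limma adjusted p = 0.000571) between 8 and 12 dpp. Nothing is read from the p of the earlier step, since the filter kept Car7 through its high libraries. The -/- differences were 2.71 and 1.60 for these steps. At 16 dpp the -/- mean lay 0.12 above the non-mutant mean on the log2 scale, with the -/- mate higher in 3 of 5 litters. Among 10 carbonic anhydrases tested of 16 listed, Car7 was the 1 that passed between 12 and 16 dpp, while the other 9 did not. Between 8 and 12 dpp 3 rose (2 under either other scaling) and 3 fell, among them Car5b (1.40, adjusted p = 9.997e-06), a mitochondrial form, and Car2 (-1.07, adjusted p = 0.00322), an abundant cytosolic one.

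Aqp8, on chr7:123462291-123468004 (ENSMUSG00000030762), codes for a channel that lets water and some small uncharged molecules cross membranes. At 8 dpp Aqp8 had 0, 0.09, 0, 0 and 0 TPM in the -/- libraries, against 0.17, 0.16, 0, 0 and 0 TPM in the non-mutant libraries. At 12 dpp Aqp8 had 1.94, 1.13, 1.43, 0.21 and 1.5 TPM in the -/- libraries, against 0.86, 2.12, 1.36, 0.25 and 0.15 TPM in the non-mutant libraries. At 16 dpp Aqp8 had 8.32, 8.58, 13.5, 16.4 and 16.04 TPM in the -/- libraries, against 5.45, 9.78, 2.69, 12.1 and 6.62 TPM in the non-mutant libraries. It was listed at 0 in 7 of 30 libraries, all at 8 dpp, and at 16 dpp the -/- libraries held the upper end of the range, though the classes overlapped. In non-mutants Aqp8 rose by 2.07 (SE 0.281, limma adjusted p = 2.75e-05) between 12 and 16 dpp. Aqp8 passed the filter on low values only through its high libraries, so nothing is read from this p. Its earlier step was close to the threshold, with a rise by 0.77 (SE 0.281, limma adjusted p = 0.0437) and a 12 dpp range that overlaps the 8 dpp range in non-mutants. That earlier call was lost in 17 of 36 alternative settings, with adjusted p up to 0.263. In -/- libraries the differences were 2.61 and 1.08. At 16 dpp Aqp8 averaged 12.6 ± 3.93 TPM in -/- and 7.34 ± 3.7 TPM in non-mutant libraries (SD, n = 5 each) and was higher in the -/- mate in 5 of 5 litters, by 0.41 to 1.34 on the log2 scale. Of 6 aquaporins tested of 12 listed, Aqp8 rose and Aqp5 fell (-0.78, adjusted p = 0.0116) between 12 and 16 dpp. Between 8 and 12 dpp Aqp12 (-2.55, adjusted p = 7.62e-07) and Aqp1 (-0.97, adjusted p = 0.000679) fell.

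Bbox1, on chr2:110262697-110314560 (ENSMUSG00000041660), codes for gamma-butyrobetaine hydroxylase, which makes the last step of carnitine synthesis, and carnitine carries long-chain fatty acids into mitochondria. At 8 dpp Bbox1 had 0, 0.1, 0.09, 0 and 0 TPM in the -/- libraries, against 0.49, 0, 0, 0 and 0.04 TPM in the non-mutant libraries. At 12 dpp Bbox1 had 1.47, 0.67, 3.43, 0.34 and 0.96 TPM in the -/- libraries, against 1.99, 1.63, 1.49, 1.24 and 1.07 TPM in the non-mutant libraries. At 16 dpp Bbox1 had 7.87, 9.61, 10.6, 10.8 and 15.1 TPM in the -/- libraries, against 7.99, 7.82, 2.44, 8.28 and 11.3 TPM in the non-mutant libraries. Its profile followed that of Aqp8 closely, absent or nearly so at 8 dpp and with the same non-mutant library, +/- replicate 1, lowest at 16 dpp. In non-mutants Bbox1 rose by 1.68 (SE 0.237, limma adjusted p = 4.32e-05) between 12 and 16 dpp and by 1.17 (SE 0.237, limma adjusted p = 0.000936) between 8 and 12 dpp. Nothing is read from the p of the earlier step, since the filter kept Bbox1 through its high libraries. The -/- differences were 2.41 and 1.06, and the non-mutant 95% interval of the later step was 1.19 to 2.18. Because the later -/- difference chose the gene, nothing is read from setting it beside that interval. At 16 dpp Bbox1 averaged 10.8 ± 2.67 TPM in -/- and 7.56 ± 3.19 TPM in non-mutant libraries (SD, n = 5 each) and was higher in the -/- mate in 5 of 5 litters, by 0.24 to 1.37. Of 14 genes of carnitine synthesis and use that were tested, 3 rose, 2 fell and 9 did not pass in the later step, with a median of 0.14. Cpt1b (1.09, adjusted p = 0.00756) and Crat (1.11, adjusted p = 0.00265), which move acyl groups onto and off carnitine, rose, and Shmt2 fell (-0.31, adjusted p = 0.0267), a call lost after median-ratio scaling (adjusted p = 0.0520). Aldh9a1, an earlier enzyme of the synthesis, rose between 8 and 12 dpp (0.41, adjusted p = 0.00263).

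Epha2, on chr4:141301240-141329384 (ENSMUSG00000006445), codes for a receptor tyrosine kinase that binds ephrin-A ligands on neighbouring cells. At 8 dpp Epha2 had 184, 139, 154, 233 and 121 TPM in the -/- libraries, against 311, 112, 127, 323 and 109.8 TPM in the non-mutant libraries. At 12 dpp Epha2 had 32.5, 24.3, 28.1, 72.4 and 50.7 TPM in the -/- libraries, against 39.8, 30.8, 28.1, 63.2 and 37.6 TPM in the non-mutant libraries. At 16 dpp Epha2 had 9.73, 7.37, 4.9, 6.69 and 3.91 TPM in the -/- libraries, against 10.03, 5.66, 16.8, 7.42 and 4.87 TPM in the non-mutant libraries. The ages do not overlap in either class, and at 8 dpp the non-mutants split into 2 libraries of 311 and 323 TPM and 3 of 109.8 to 127 TPM. In non-mutants Epha2 fell, with log2 changes of -2.10 (SE 0.328, limma adjusted p = 0.00013) between 12 and 16 dpp and -2.15 (SE 0.328, limma adjusted p = 6.18e-05) between 8 and 12 dpp. The -/- differences were -2.44 and -2.05. At 16 dpp Epha2 was lower in the -/- mate in 5 of 5 litters, by 0.13 to 0.73, while the classes overlapped. Of 19 Eph receptors and ephrins tested, 0 rose and 7 fell between 12 and 16 dpp (6 after median-ratio scaling), with a median of -0.40. After Epha2 the smallest p belonged to Ephb6 (-0.87, adjusted p = 0.000177), Epha1 (-0.85, adjusted p = 0.000838) and Efna2 (-0.50, adjusted p = 0.00434). Between 8 and 12 dpp 1 rose and 7 fell, among them Ephb6 (-0.71, adjusted p = 0.000780) and the ligand Efnb2 (-1.01, adjusted p = 0.00143).

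Lpl, on chr8:68880491-68907448 (ENSMUSG00000015568), codes for lipoprotein lipase, which releases fatty acids from circulating triglyceride-rich particles. At 8 dpp Lpl had 78.4, 122, 126, 131 and 98.5 TPM in the -/- libraries, against 130.2, 108, 105, 141 and 85.1 TPM in the non-mutant libraries. At 12 dpp Lpl had 23.02, 36.1, 20.5, 57.4 and 32.95 TPM in the -/- libraries, against 21.02, 26.5, 25.4, 43.9 and 22.97 TPM in the non-mutant libraries. At 16 dpp Lpl had 9.96, 7.48, 10.7, 8.79 and 6.49 TPM in the -/- libraries, against 8.42, 7.42, 11.3, 7.48 and 3.73 TPM in the non-mutant libraries. Each age lay clear of the next in both classes, and the highest library at 12 dpp came from litter 12 in both. In non-mutants Lpl fell, with log2 changes of -1.76 (SE 0.219, limma adjusted p = 9.78e-06) between 12 and 16 dpp and -2.02 (SE 0.219, limma adjusted p = 2.01e-06) between 8 and 12 dpp, and the -/- differences were -1.78 and -1.75. At 16 dpp the -/- mate was higher in 3 of 5 litters. Of 13 genes of the lipoprotein lipase pathway tested, 1 rose, 3 fell and 9 did not pass in the later step. Gpihbp1, which holds the lipase at the capillary wall (-0.72, adjusted p = 0.0368, but 0.0547 after median-ratio scaling), fell with Lpl, and the endothelial lipase Lipg rose (0.63, adjusted p = 0.00350). Lpl transcripts share 1.40% of their 50-base stretches with other genes.

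Lpcat2, on chr8:92855339-92919279 (ENSMUSG00000033192), codes for a lysophosphatidylcholine acyltransferase that remodels membrane phospholipids and makes platelet-activating factor. At 8 dpp Lpcat2 had 21.98, 37.3, 37.4, 44.2 and 29.9 TPM in the -/- libraries, against 34.5, 30.2, 38.1, 41.1 and 28.6 TPM in the non-mutant libraries. At 12 dpp Lpcat2 had 9.21, 15.4, 7.5, 20.1 and 11.02 TPM in the -/- libraries, against 6.98, 9.99, 8.39, 14.4 and 9.91 TPM in the non-mutant libraries. At 16 dpp Lpcat2 had 1.91, 1.64, 1.17, 1.89 and 2.18 TPM in the -/- libraries, against 2.28, 1.96, 2.53, 1.73 and 1.35 TPM in the non-mutant libraries. It reached the lowest level of the 6 falling genes at 16 dpp, with little spread between libraries. In non-mutants Lpcat2 fell, with log2 changes of -1.86 (SE 0.181, limma adjusted p = 4.51e-07) between 12 and 16 dpp and -1.72 (SE 0.181, limma adjusted p = 1.39e-06) between 8 and 12 dpp. In -/- libraries the differences were -2.24 and -1.41, and at 16 dpp the -/- mate was higher in 2 of 5 litters. Of 14 lysophospholipid acyltransferases tested, 2 rose and 2 fell in the later step, and apart from Lpcat2 no change exceeded 0.40 among those that passed: Agpat1 rose (0.40, adjusted p = 0.0206), Lpcat3 rose (0.31, adjusted p = 0.0368) and Mboat7 fell (-0.27, adjusted p = 0.0167, but 0.0831 after median-ratio scaling). The Lpcat2 span overlaps Capns2, Gm22151 and Gm45472, and 6.95% of the 50-base stretches of its transcripts also occur in Gm45472, so part of its level is uncertain.

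Slc1a6, on chr10:78780496-78814765 (ENSMUSG00000005357), codes for a high-affinity transporter of glutamate and aspartate best known from cerebellar Purkinje neurons. At 8 dpp Slc1a6 had 40.9, 72.97, 64.02, 63.6 and 60.2 TPM in the -/- libraries, against 71.03, 66.96, 64.7, 70.6 and 56.9 TPM in the non-mutant libraries. At 12 dpp Slc1a6 had 17.7, 27.2, 19.6, 32.8 and 23.9 TPM in the -/- libraries, against 19.8, 20.3, 26.9, 27.1 and 19.7 TPM in the non-mutant libraries. At 16 dpp Slc1a6 had 5.33, 4.95, 4.5, 5.12 and 5.88 TPM in the -/- libraries, against 10.7, 5.01, 11.9, 5.43 and 6.07 TPM in the non-mutant libraries. The -/- libraries at 16 dpp were tightly grouped, and 2 non-mutant libraries, +/+ replicate 1 and +/- replicate 1, were higher, at 10.7 and 11.9 TPM. In non-mutants Slc1a6 fell, with log2 changes of -1.49 (SE 0.190, limma adjusted p = 1.27e-05) between 12 and 16 dpp and -1.51 (SE 0.190, limma adjusted p = 8.89e-06) between 8 and 12 dpp. In -/- testes the differences were -2.01 and -1.29, and the non-mutant 95% interval of the later step was -1.89 to -1.10. Because the later -/- difference chose the gene, nothing is read from setting it beside that interval. The -/- mate was lower in 5 of 5 litters at 16 dpp, by 0.04 to 1.02. Of 5 Slc1 transporters tested, Slc1a6 was the 1 that passed in either step, though under both other scalings Slc1a3 and Slc1a5, a glial glutamate transporter and a neutral amino acid transporter, passed as lower at 12 than at 8 dpp (-0.42 and -0.40 after median-ratio scaling, adjusted p = 0.0415 and 0.0139).

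Kcnt1, on chr2:25863734-25918273 (ENSMUSG00000058740), codes for a sodium-activated potassium channel of the Slo family. At 8 dpp Kcnt1 had 41.1, 50.4, 47.3, 80.8 and 69.7 TPM in the -/- libraries, against 54.3, 51.3, 55.6, 83.2 and 57.6 TPM in the non-mutant libraries. At 12 dpp Kcnt1 had 27.02, 35.3, 28.8, 38.8 and 31.7 TPM in the -/- libraries, against 26.2, 22.7, 38.5, 44.3 and 31.02 TPM in the non-mutant libraries. At 16 dpp Kcnt1 had 17, 7.93, 11.1, 10.8 and 12.02 TPM in the -/- libraries, against 8.66, 6.7, 15.4, 8.65 and 6 TPM in the non-mutant libraries. The ages did not overlap in either class. Between 8 and 16 dpp its log2 difference, -2.19 in -/- and -2.65 in non-mutant libraries, was the smallest of the 6 falling genes in both classes. In non-mutants Kcnt1 fell, with log2 changes of -1.76 (SE 0.223, limma adjusted p = 1.17e-05) between 12 and 16 dpp and -0.89 (SE 0.223, limma adjusted p = 0.00507) between 8 and 12 dpp. For -/- libraries the differences were -1.41 and -0.79, and at 16 dpp the -/- mate was higher in 4 of 5 litters. Of 4 Slo channel genes tested, Kcnt1 was the 1 that passed between 12 and 16 dpp, and between 8 and 12 dpp Kcnmb4, an accessory subunit, fell too (-0.88, adjusted p = 0.00237). The earlier call of Kcnt1 was lost with +/- libraries alone as non-mutants (-1.04, adjusted p = 0.0580) and with the Sertoli list as a covariate (-0.77, adjusted p = 0.126), with changes near the -0.89 given above.

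Sel1l3, on chr5:53107083-53213927 (ENSMUSG00000029189), codes for a protein with Sel1 repeats. At 8 dpp Sel1l3 had 78.8, 144, 145, 164 and 128 TPM in the -/- libraries, against 177, 104, 142, 166 and 92.6 TPM in the non-mutant libraries. At 12 dpp Sel1l3 had 45, 84.98, 52.5, 77.3 and 71.6 TPM in the -/- libraries, against 48.96, 45.6, 59.8, 61.9 and 67.2 TPM in the non-mutant libraries. At 16 dpp Sel1l3 had 11.1, 11.02, 6.02, 8.74 and 7.59 TPM in the -/- libraries, against 16.4, 5.46, 19.4, 8.37 and 11.9 TPM in the non-mutant libraries. Most of its fall on the log2 scale came after 12 dpp, and the 8 and 12 dpp -/- ranges still touched, through -/- replicate 1 at 8 dpp. In non-mutants Sel1l3 fell, with log2 changes of -2.22 (SE 0.259, limma adjusted p = 4.52e-06) between 12 and 16 dpp and -1.22 (SE 0.259, limma adjusted p = 0.00142) between 8 and 12 dpp. In -/- libraries the differences were -2.76 and -0.98, and at 16 dpp the -/- mate was higher in 2 of 5 litters. Of 9 Sel1-repeat and related endoplasmic reticulum proteins tested, Derl3 (0.99, adjusted p = 0.000158) and Erlec1 (0.41, adjusted p = 0.00643), which serve protein quality control, rose in the later step while Sel1l3 fell. The Sel1l3 span has n-R5s171 on its other strand, and whether the counting used strand is not given in the sources used here.

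**Figure D2:**
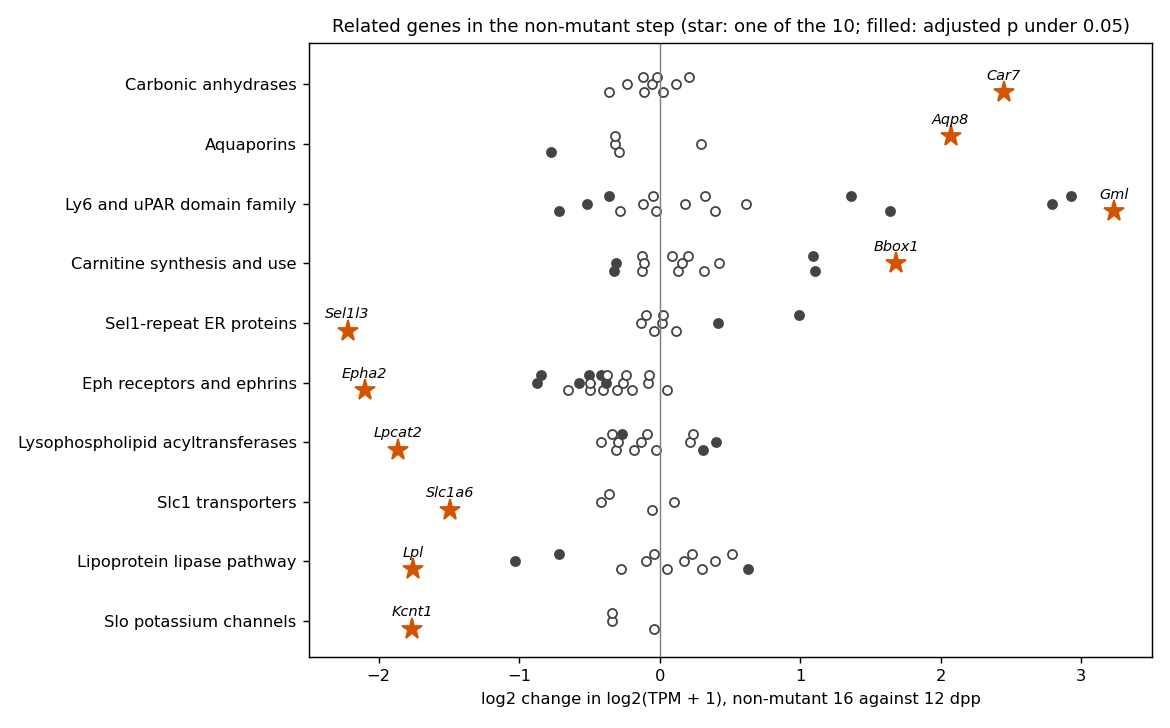
Change in log2(TPM + 1) between 12 and 16 dpp in non-mutant libraries for the tested genes of each related list, 1 list per row, with stars for the 10 genes, dots for their relatives, and filled symbols for adjusted p under 0.05. Outside the Ly6 list no relative lies beyond 1.11 in either direction, while the Ly6 list holds 4 further rises beside Gml.

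At 8 dpp, the one age at which -/- libraries had no part in the choice, none of the 10 genes passed a test of -/- against non-mutant libraries (limma adjusted p = 1 for each), and 0 of 19238 rows did (0%), with 312 at an unadjusted p under 0.05. The 10 differences ran from -0.15 for Slc1a6 to 0.16 for Gml. The widest 95% interval was that of Car7, -0.68 to 0.74, and the narrowest that of Lpcat2, -0.41 to 0.34, with 5 libraries a group. Differences inside these intervals are not excluded. The intervals are not limits of detection, since calls were adjusted over 19238 rows.

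**Figure D3:**
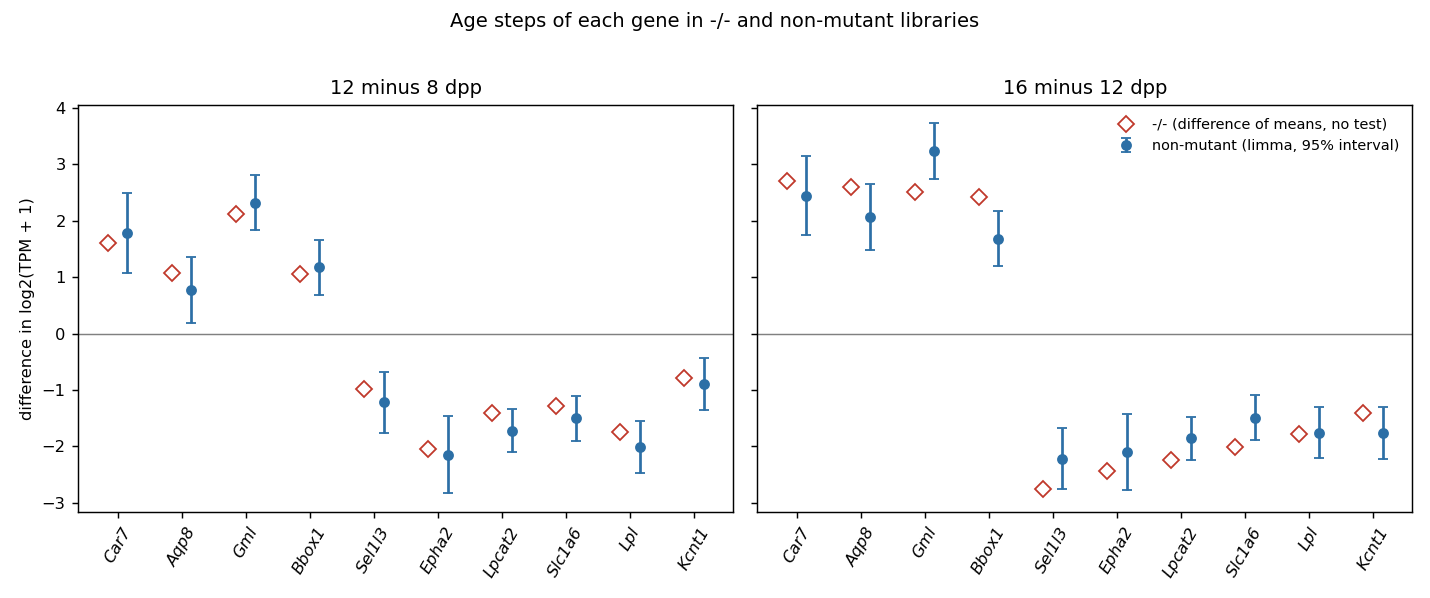
Difference in log2(TPM + 1) between 12 and 8 dpp (left) and 16 and 12 dpp (right) for each gene, with -/- differences of means (open red diamonds, no test) left of non-mutant limma estimates with 95% intervals (blue). All 10 genes have the same sign in both classes and both steps.

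At 16 dpp the genotype differences of the 10 genes were also read within litters, because each litter gave 1 -/- and 1 non-mutant animal. On the log2 scale the means of -/- minus non-mutant libraries were 0.78 for Aqp8, 0.55 for Bbox1, 0.37 for Kcnt1, 0.21 for Lpl and 0.12 for Car7. They were -0.10 for Lpcat2, -0.34 for both Sel1l3 and Epha2, -0.45 for Slc1a6 and -0.78 for Gml. The sign was the same in 5 of 5 litters for Aqp8 and Bbox1, higher in -/- mates, and for Gml, Epha2 and Slc1a6, lower in -/- mates. These values carry no test, since the 16 dpp -/- libraries chose the genes. How many of all rows have the same sign in 5 of 5 litters was not counted, so nothing is read from these signs.

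**Figure D4:**
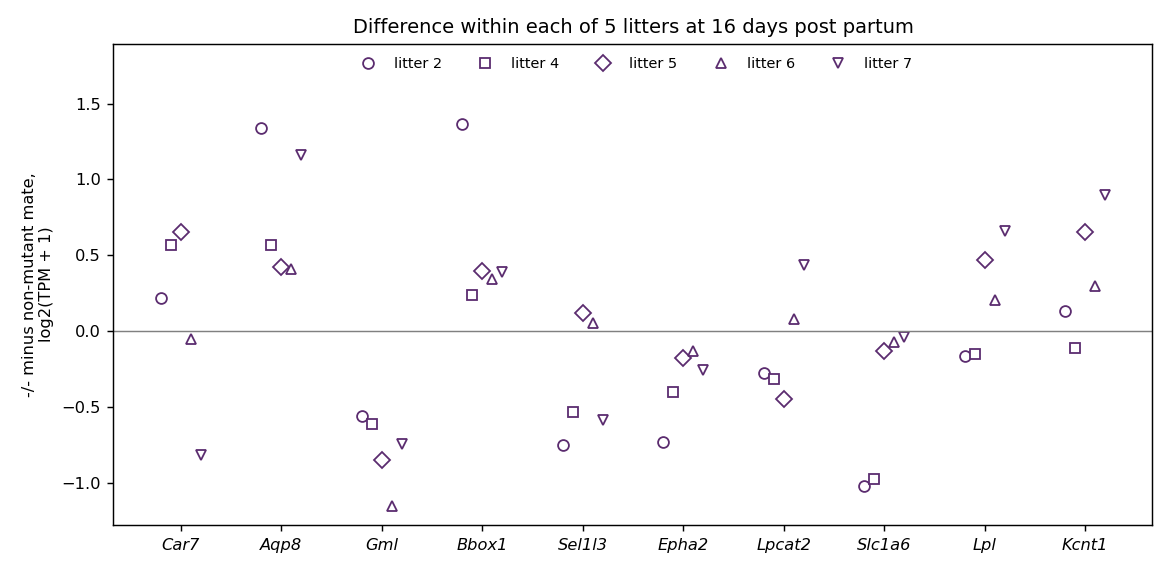
Difference in log2(TPM + 1) between the -/- animal and its non-mutant mate for each gene in the 5 litters at 16 dpp, 1 symbol per litter. All 5 symbols lie above 0 for Aqp8 and Bbox1 and below 0 for Gml, Epha2 and Slc1a6. The share of all rows with the same sign in every litter was not counted.

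Within an age the falling genes stood high or low together in some animals. At 8 dpp -/- replicate 1 held the lowest -/- level of 5 of the 6 falling genes, and -/- replicate 4 the highest of 5. Among the non-mutants of that age +/- replicate 2 held the lowest of 5 and +/- replicate 1 the highest of 4. The summed leptotene and zygotene markers were at 386 TPM in -/- replicate 1, against 136 to 219 TPM in the other -/- libraries at 8 dpp. At 12 dpp the libraries of litter 12, -/- replicate 4 and +/- replicate 3, each held the highest level of their class for 5 of the 6 falling genes, and the -/- one the lowest for 3 of the 4 rising genes. At 16 dpp +/- replicate 1, of litter 2, held the highest non-mutant level of 6 of the 6 falling genes and the lowest of 3 of the 4 rising ones, but the highest of Car7. Its -/- mate held the highest level of 3 of the 6 falling genes. The summed level of 18 pachytene and diplotene markers was 333 TPM in that +/- library, the lowest of the non-mutants at 16 dpp, against 587 to 1768 TPM in the other 4. Leaving out litters 2 and 12, chosen after their values were seen, the non-mutant changes between 12 and 16 dpp stayed called for all 10 genes, with Car7 at 2.01 and Bbox1 at 1.95 and 3317 rows called in all.

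Named genes with the most similar profiles were sought among 13269 genes, leaving out the 10 themselves, by the root mean square difference of centred log2(TPM + 1) over the 30 libraries, a description in which all genes share the same libraries. Nearest to Gml were Kctd19 (0.397), Tesmin (0.410) and Gml2 (0.455), and nearest to Car7 were Gml2 (0.729), Tesmin (0.770) and Tsx (0.774). Aqp8 and Bbox1 shared Dmrtc1b (0.419 and 0.356) and C2cd4b (0.468 and 0.471) among their 3 nearest and lay 0.392 from each other. Of genes outside the 10, Serpine2, a secreted protease inhibitor, was nearest to Lpl (0.266), Lpcat2 (0.305), Epha2 (0.589) and Sel1l3 (0.525) and among the 3 nearest to Slc1a6 (0.342). Some of the falling genes lay closer to each other than to Serpine2. Lpcat2 lay 0.276 from Lpl, Slc1a6 lay 0.317 from Lpcat2, Epha2 lay 0.516 from Lpl, and Sel1l3 lay 0.386 from both Lpcat2 and Slc1a6. Lpl and Lpcat2 also had Ccn1 and Hsd17b1 among their 3 nearest outside the 10. Kcnt1 was nearest to Ltbp3 (0.276), Dst (0.322) and Hoxb9 (0.331). Car7 had the poorest match, its closest gene being further off than the closest gene of each of the other 9.

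Serpine2 averaged, in -/- libraries, 259 TPM at 8 dpp, 65.1 at 12 dpp and 22.6 at 16 dpp, against 254, 63.5 and 22.2 TPM in non-mutant libraries at the same ages. Kctd19 averaged 0.34, 3.18 and 20.2 TPM in -/- libraries against 0.28, 3.62 and 53.9 TPM in non-mutant ones, and Dmrtc1b 0.20, 2.24 and 12.6 TPM against 0.35, 2.20 and 9.53 TPM. At 16 dpp the mean of Kctd19 was lower in -/- than in non-mutant libraries, as that of Gml was. The mean of Dmrtc1b was higher, as those of Bbox1 and Aqp8 were. Because these neighbours were picked over all libraries, those at 16 dpp included, such likeness is part of the choice.

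Markers of other cell types were set beside the genes, since the libraries are labelled as enriched germ cells. Sertoli cell markers were present throughout: 28 of 28 had a row, 0 were at 0 in every library, and their summed level ran from 12235 to 18751 TPM over the 30 libraries. In the later non-mutant step 2 of the 28 rose and 8 fell (median -0.21; 2 and 5 after median-ratio scaling), and in the earlier one 10 rose and 8 fell. Amh, the hormone of immature Sertoli cells, fell as the 6 genes did, with means of 570, 281 and 93.8 TPM at 8, 12 and 16 dpp in -/- libraries and 649, 241 and 109.7 TPM in non-mutants. In non-mutants Amh changed by -1.13 between 12 and 16 dpp (adjusted p = 0.00106) and by -1.33 between 8 and 12 dpp (adjusted p = 0.000140). Sox9, a Sertoli transcription factor, changed by -0.35 and -0.33 in these steps (adjusted p = 0.0205 and 0.0186, the first 0.117 after median-ratio scaling) and ran from 51.4 to 120.9 TPM over all libraries. Cldn11 and Rhox5, markers of maturing Sertoli cells, rose between 8 and 12 dpp (0.82 and 4.10, adjusted p = 0.00195 and 4.67e-08) and did not pass between 12 and 16 dpp. The 2 Sertoli markers that rose in the later step were Tsx (2.01, limma adjusted p = 0.000140) and Hopx (1.05, limma adjusted p = 0.00293). Tsx, among the 3 nearest profiles of Car7, also rose in the earlier step (2.86, limma adjusted p = 2.21e-06). Among 15 Sertoli maturation markers tested, 11 rose and 1 fell in the earlier step. In the later step 1 of them rose and 4 fell. The part of these cells in the levels of the 10 genes was not tested.

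Markers of early meiotic germ cells rose in both steps in which the 4 rising genes rose, and most markers of later ones in the second step. Of 14 leptotene and zygotene markers 14 rose between 8 and 12 dpp and 9 between 12 and 16 dpp, and their sum at 16 dpp ran from 1087 to 1581 TPM in -/- and from 1228 to 1711 TPM in non-mutant libraries. Of 10 markers of undifferentiated spermatogonia tested in the later step, 1 rose and 3 fell. Of 13 pachytene and diplotene markers tested, 2 rose between 8 and 12 dpp, Ovol1 (0.79, adjusted p = 0.00563) and Clgn (0.96, adjusted p = 0.0178), named after their values were seen, and 12 rose in the later step. The sum of the 18 listed pachytene and diplotene markers at 16 dpp was 162 to 209 TPM in -/- libraries. In non-mutant libraries it was 333 to 1768 TPM, without overlap. Levels of the 4 rising genes overlapped between the classes, with the -/- mean lower for Gml and higher for Car7, Aqp8 and Bbox1. The -/- libraries at 16 dpp chose these genes, so nothing is read from setting them beside the sum. Ldhc, an enzyme of late spermatocytes, ran from 3.20 to 6.09 TPM in -/- and from 42.0 to 602 TPM in non-mutant libraries at 16 dpp. The part of these cells in the rises was not tested.

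Markers of cells outside the tubules were present at every age. The summed level of 14 Leydig markers had medians of 613, 358 and 551 TPM at 8, 12 and 16 dpp in -/- libraries and 596, 438 and 415 TPM in non-mutant libraries, and at 16 dpp it ran from 323 to 680 TPM in -/- and from 235 to 516 TPM in non-mutant libraries. In non-mutants 2 of the 14 rose and 4 fell between 8 and 12 dpp, and 1 rose and 2 fell between 12 and 16 dpp. The genes of this list named next were chosen after their values were seen. Hsd17b3, which makes testosterone, fell in both steps, by 2.91 and then by 1.04 (adjusted p = 1.16e-06 and 0.0190). Ptgds, a prostaglandin synthase, and Akr1c14, a steroid reductase, fell between 8 and 12 dpp (-2.22 and -1.06, adjusted p = 3.14e-06 and 0.000155). Hsd3b6, a steroid dehydrogenase of adult Leydig cells, rose in both steps, by 2.45 and then by 1.53 (adjusted p = 2.22e-06 and 0.000468). The summed level of 10 peritubular markers ran from 1197 to 2339 TPM over the 30 libraries. That of 12 macrophage and leukocyte markers ran at 8 dpp from 47.8 to 102 TPM in -/- and from 48.9 to 64.0 TPM in non-mutant libraries. At 16 dpp it ran from 162 to 289 TPM in -/- and from 110.3 to 226 TPM in non-mutant libraries, and 4 of its 12 genes rose in the later non-mutant step. Peritubular, endothelial and erythroid lists had 0 rises in that step, with 0, 1 and 0 falls. Their part in the 10 genes was not tested.

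**Figure D5:**
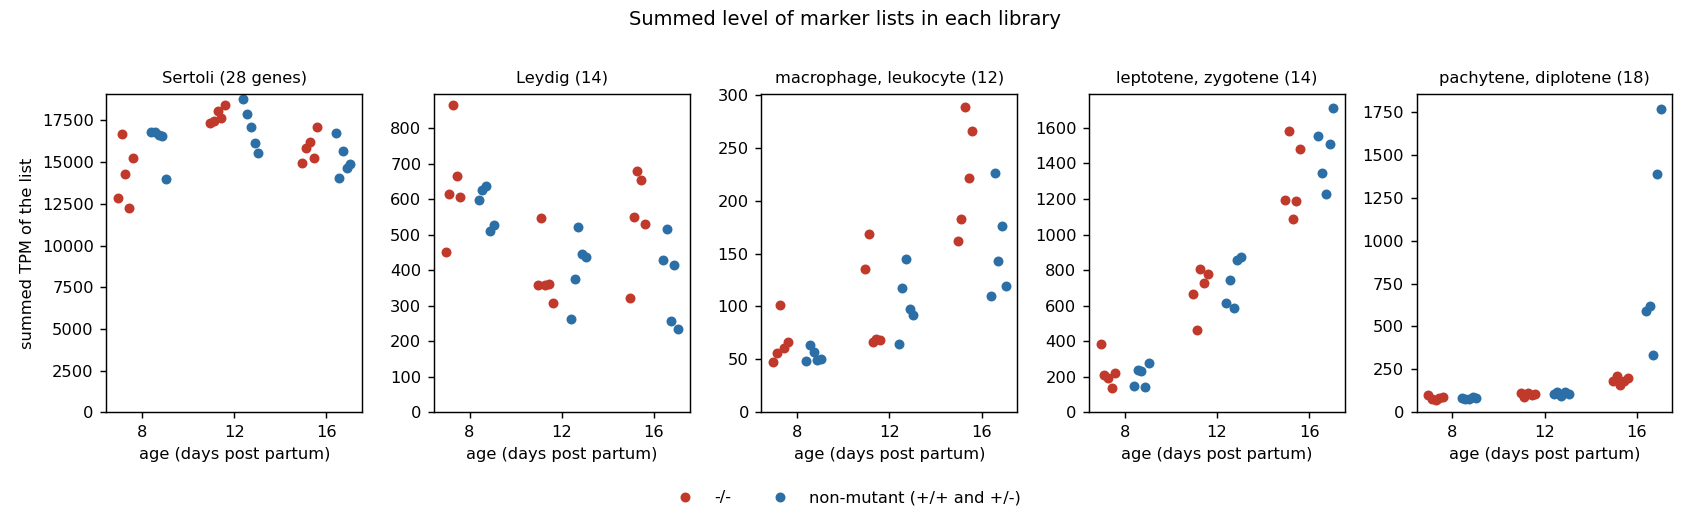
Summed TPM of 5 marker lists in each library by age, with -/- libraries (red) left of non-mutant libraries (blue), on axes that start at 0. The Sertoli sum stays between 12235 and 18751 TPM, while the pachytene and diplotene sum at 16 dpp separates the -/- libraries (162 to 209 TPM) from the non-mutant ones (333 to 1768 TPM).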

How the data were processed

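The authors deposited gene-level TPM for 30 libraries, rounded to 2 decimals. Per the submitters' processing notes the tools were Bowtie 1.0.0 and RSEM 1.2.8 and the build mm10 (GRCm38). Depth is unknown, since TPM keeps none. The members and lists were chosen with earlier results of these data known. All 10 members are described in full, the genes set beside them by a stated rule: the 3 nearest named profiles, and up to 4 genes a list by adjusted p. Symbols came from GENCODE M21. A listed gene is not reported here.

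Rows over 1 TPM in at least 5 of the 20 fitted libraries (19238) were tested with limma 3.58.1 (R 4.3.3, eBayes with trend) on log2(TPM + 1) in 4 groups, with Benjamini-Hochberg adjustment and a threshold of 0.05. Fold changes on this scale understate those of low genes. On simulated data for the later step the fit found 90 of 100 rows shifted by 1 and 100 of 100 shifted by 2, and 7 of its 197 calls were false. Only those rows were shifted, whereas 3542 rows were called in the libraries themselves, so this share of false calls need not hold there. The file headers hold a number read here as the litter, which pairs animals within an age. At 8 dpp the deviations of 7 pairs of litter mates correlated by 0.06 to 0.34, with a median of 0.10, against a median of -0.09 across litters. Numbers of the libraries run with age, so an order of processing and age cannot be told apart. RefSeq sequences are of build GRCm38.p6. Alternatives changed the pseudocount, filter, scaling, groups, covariates and block and left out libraries.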

Additional observations from a re-analysis of the deposited data

Results flagged for a closer look

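Of 60 combinations of gene and group checked, 5 held a library set apart from the other 4, where a rate of 1 in 20 gives about 3. That rate need not hold for rounded levels with several at 0, nor for genes that share libraries. Aqp8 was at 0.09 TPM in -/- 8 dpp replicate 2 and listed at 0 in the other 4. Gml was at 2.84 TPM in -/- 8 dpp replicate 1, against 1 to 1.37 TPM in the other 4. Bbox1 was at 0.49 TPM in +/+ 8 dpp replicate 1, against 0 to 0.04 TPM, and at 2.44 TPM in +/- 16 dpp replicate 1, against 7.82 to 11.3 TPM. Kcnt1 was at 83.2 TPM in +/- 8 dpp replicate 1, against 51.3 to 57.6 TPM.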

How the results depend on the processing

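Between 12 and 16 dpp all 10 genes kept their direction and their call in non-mutants under every alternative but one. With the pachytene and diplotene list as a covariate 3 rows were called (0 higher, 3 lower) and none of the 10 genes (adjusted p from 0.651); the summed list separates the ages, at 98.3 to 120.4 TPM at 12 dpp and 333 to 1768 TPM at 16 dpp. With +/- libraries alone as non-mutants the counts were 1550 and, between 8 and 12 dpp, 2122, from fewer libraries. With the Sertoli list as a covariate the earlier count was 2169, and Car7 (1.42 in place of 1.78, adjusted p = 0.0624), Kcnt1 (-0.77 in place of -0.89) and Aqp8 (0.73 in place of 0.77) lost their earlier call, with larger errors; the cause was not tested. A term for +/- gave 4 rows at 8 dpp in place of 0. Leaving out 1 library at a time gave 2188 to 4247 rows in the later step, the lowest without +/- 16 dpp replicate 3, 4132 to 6039 in the earlier step and 0 at 8 dpp. Median-ratio scaling gave 2143 higher and 1360 lower rows in the later step (main 1472 and 2070) and 2659 and 2989 in the earlier (main 3405 and 2182), where quantile normalization gave 2847 and 2765. With litter as a replicate block the counts were 3567, 5413 and 0, and with the replicate number as a block 3709, 5745 and 0; neither block changed a call of the 10 genes. Scaling moved the median change of all rows by under 0.1 and turned no called gene of the lists.

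At 8 dpp, where no gene was called, signs turned: Car7 to -0.22 with a pseudocount of 0.1 and -0.0075 with quantile normalization, Sel1l3 to 0.011 and Kcnt1 to 0.043 with a +/- term, Sel1l3 to 0.00999 with the Sertoli and Lpl to 0.0097 with the pachytene covariate, and with +/- alone Aqp8 to 0.025, Gml to -0.075, Bbox1 to 0.024 and Sel1l3 to 0.047. Leaving out 1 library, the 8 dpp ranges were -0.14 to 0.21 for Car7, -0.017 to 0.23 for Gml, -0.11 to 0.038 for Bbox1, -0.17 to 0.13 for Sel1l3, -0.27 to 0.12 for Epha2, -0.14 to 0.11 for Lpcat2, -0.14 to 0.080 for Lpl and -0.21 to 0.036 for Kcnt1. Depth is unknown, so low levels such as those of Aqp8 and Bbox1 at 8 dpp carry no interval.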
